A study of Mus musculus with 6 samples.

Results

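Messenger RNA levels of 10 neutrophil genes were followed in mouse acute myeloid leukemia (AML) cells that did or did not carry a deletion of *Phf6*, a chromatin-associated PHD finger protein. The 10 genes are the S100 genes *S100a8* and *S100a9*, the secondary and tertiary granule genes *Camp*, *Ltf*, *Ngp*, *Lcn2*, *Mmp8*, *Mmp9* and *Cd177*, and *Chil3*. They were taken by gene symbol from the 54532 genes of the deposited table, 1 row for each. All 10 had enough counts to be tested, among 14169 genes tested in all. Each of the 10 was higher in the *Phf6*-deleted leukemia cells, by log2 fold changes between 1.42 and 3.39.

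Leukemia was driven in every library by the truncated fusion gene *RUNX1-ETO9a* (RE9a), carried by a retrovirus that also marks cells with GFP. The virus was put into lineage-negative fetal liver cells of male embryos, and the leukemia was passed through male recipient mice. Cells named *WT Phf6,RE9a* came from *Phf6* fl/y embryos without Cre, and cells named *VC Phf6,RE9a* from Vav1-Cre;*Phf6* fl/y embryos, in which the floxed *Phf6* is deleted in blood cells. GFP+ cells were sorted from the bone marrow of diseased recipients. The *WT Phf6,RE9a* group has 3 libraries, numbered as replicates 1, 2 and 3, and the *VC Phf6,RE9a* group 3, numbered 11, 12 and 13. Male mice were 6 to 8 weeks old, with the step at which this held not stated. The transplant passage of the RNA samples and whether each library comes from a mouse of its own are not given in the sources used here, so the p-values measure only the spread between these libraries, which may be technical.

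Total counts ran from 15675358 to 16817994 per library. *Phf6* (chromosome X, 52912266 to 52956943, plus strand, GRCm38) had 1044, 827 and 1142 counts in *WT Phf6,RE9a* and 388, 314 and 331 in *VC Phf6,RE9a* libraries. The groups did not overlap (log2 fold change -1.66, standard error (SE) 0.13, with a Benjamini-Hochberg adjusted p of 9.32e-05 by the quasi-likelihood test of edgeR). Of 8 markers of myeloid leukemia cells (*Mpo*, *Elane*, *Ctsg*, *Spi1*, *Cebpa*, *Itgam*, *Ptprc* and *Runx1t1*), none was at 0 in any library. Most of these markers are also on the azurophil, transcription factor or partner lists below, so the lists are not separate checks. Their summed level was 201 to 279 CPM (counts scaled to library size by TMM) in *WT Phf6,RE9a* and 358 to 596 CPM in *VC Phf6,RE9a* cells. In the same *WT Phf6,RE9a* libraries 9 mast cell and basophil markers together reached 16980 to 27233 CPM, far above the myeloid list.

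Neutrophils fill their granules in sequence as they mature. Azurophil granules, which hold myeloperoxidase and the serine proteases, are made first in promyelocytes. Secondary (specific) granules with lactoferrin, cathelicidin and lipocalin-2 follow in myelocytes, and tertiary granules with gelatinase come later still. The transcription factor C/EBPε is needed for the secondary granule genes. S100A8 and S100A9 are calcium-binding proteins of the cytosol that pair as calprotectin, bind zinc and manganese, and make up a large part of the protein in a mature neutrophil.

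Promoter sequences are shown first because C/EBP, RUNX and PU.1 factors act on many granule genes and because RE9a keeps the DNA-binding domain of RUNX1. The RefSeq promoter table (GRCm38.p6) held 9 of the 10 genes, and *Mmp9* had no entry. The 250 bases before each start were searched on both strands for TTGCNNAA (C/EBP), TGTGGT (RUNX) and GAGGAAG (PU.1). TTGCNNAA, read as TTNNGCAA on the other strand, was found in 5 of the 9, namely *S100a9*, *Ltf*, *Ngp*, *Lcn2* and *Mmp8*, and in 9.56% of all 32851 promoters. GAGGAAG, read as CTTCCTC on the other strand, was found in *S100a8*, *Lcn2* and *Mmp8*, 3 of the 9, against 10.6% of all promoters. TGTGGT, or ACCACA on the other strand, was found in *S100a9* alone, 1 of the 9, against 14.05% of all promoters. No match overlapped another in these windows. The *Lcn2* window (chr2:32387740-32387989, minus strand) lies wholly within the gene as the deposited table places it, so its matches are not upstream of that start. The *Camp* window (chr9:109849457-109849706, minus strand) lies partly within its gene, which ends at 109849617. So do those of *S100a8* (93 of the 250 bases), *Ngp* (61) and *Ltf* (21).

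Of the promoters with a C/EBP match, 4 are printed, with that of *Chil3*, in which none of the 3 motifs was found. The windows of *Camp*, the gene with the largest log2 fold change (3.39), and of *Cd177* held none of the 3 either. Sequences run 5′ to 3′ on the strand of the gene, with every motif match in capitals, and bases that the deposited table counts as part of the gene are left out. *S100a9* lies at chr3:90695722-90695971 (minus strand), with its C/EBP match from 236 bases before the start and a RUNX match, read on the other strand, from 64 bases before it. *Ltf* is at chr9:111019042-111019270 (plus), with its match from 75 bases before the RefSeq start. *Ngp* is at chr9:110419558-110419746 (plus), with its match from 138 bases before the start. A further *Ngp* match, 11 bases before the start, lies in the part left out. *Mmp8* is at chr9:7558179-7558428 (plus), with a PU.1 match from 220 and a C/EBP match from 19 bases before the start. *Chil3* is at chr3:106167565-106167814 (minus).
S100a9: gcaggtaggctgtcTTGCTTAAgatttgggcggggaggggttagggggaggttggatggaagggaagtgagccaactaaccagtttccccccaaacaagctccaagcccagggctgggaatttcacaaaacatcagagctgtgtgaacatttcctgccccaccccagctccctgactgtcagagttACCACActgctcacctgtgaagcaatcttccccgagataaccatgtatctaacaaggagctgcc
Ltf: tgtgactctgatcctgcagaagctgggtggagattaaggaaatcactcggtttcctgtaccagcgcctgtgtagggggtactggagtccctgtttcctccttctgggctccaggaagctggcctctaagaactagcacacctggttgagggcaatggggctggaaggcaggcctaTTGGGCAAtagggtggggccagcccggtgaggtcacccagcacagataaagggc
Ngp: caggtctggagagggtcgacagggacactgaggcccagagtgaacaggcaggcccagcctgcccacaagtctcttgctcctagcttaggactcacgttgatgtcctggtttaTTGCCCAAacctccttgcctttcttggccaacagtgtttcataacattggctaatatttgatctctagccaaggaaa
Mmp8: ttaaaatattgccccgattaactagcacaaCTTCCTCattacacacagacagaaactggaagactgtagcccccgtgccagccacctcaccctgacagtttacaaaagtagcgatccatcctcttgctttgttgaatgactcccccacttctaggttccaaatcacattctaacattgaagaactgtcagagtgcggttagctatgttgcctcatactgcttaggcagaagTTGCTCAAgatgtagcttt
Chil3: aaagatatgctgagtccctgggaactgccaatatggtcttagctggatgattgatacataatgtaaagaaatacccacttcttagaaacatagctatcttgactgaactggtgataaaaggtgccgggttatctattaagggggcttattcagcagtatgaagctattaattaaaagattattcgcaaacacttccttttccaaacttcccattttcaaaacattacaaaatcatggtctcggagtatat

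The S100 pair had the highest levels of the 10 genes per length. *S100a8* (chromosome 3, 90668978 to 90670035, plus strand, 3 exons) had 581, 484 and 1487 counts in *WT Phf6,RE9a* replicates 1, 2 and 3, and 13434, 8291 and 3415 in *VC Phf6,RE9a* replicates 11, 12 and 13. Every *VC Phf6,RE9a* library was above every *WT Phf6,RE9a* library. The lowest of them, replicate 13, was 2.25 times the highest *WT Phf6,RE9a* library, replicate 3, in CPM. Means were 53.5 ± 31.7 and 493 ± 295 CPM (SD, n = 3), and the log2 fold change was 3.20 with an SE of 0.57 (adjusted p = 0.0033 by edgeR).

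*S100a9*, whose protein partners that of *S100a8*, lies beside it (chromosome 3, 90692632 to 90695721, minus strand, 3 exons). Replicate by replicate it had 690, 520 and 1819 counts in *WT Phf6,RE9a* and 15963, 9756 and 4052 in *VC Phf6,RE9a* libraries. The groups were again apart, with the same libraries highest and lowest. The log2 fold change was 3.20 (SE 0.59, adjusted p = 0.00391), from 63.4 ± 40.7 to 584 ± 351 CPM. In each library *S100a9* gave close to the same share of the counts of the pair. The share was 54.3% (Wilson 95% interval 51.5 to 57.0), 51.8% (48.7 to 54.9) and 55.0% (53.3 to 56.7) in *WT Phf6,RE9a*, and 54.3% (53.7 to 54.9), 54.1% (53.3 to 54.8) and 54.3% (53.1 to 55.4) in *VC Phf6,RE9a* libraries. The 6 intervals, which cover counting error only, all overlap, while *S100a8* itself ranged from 484 to 13434 counts.

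With these, all 10 genes passed the threshold as higher, and 21.5% of the 14169 genes tested did so. A further 22.7% of all genes tested were lower. With scaling by total counts only, the split of 3047 higher and 3213 lower genes became 4048 and 2474. In the TMM-scaled fit the median log2 fold change over all genes tested was 0.013, against 2.90 over the 10 genes. In 9 of the 10 the groups did not overlap with *VC Phf6,RE9a* above, which held for 28.9% of all genes tested. Each of the 10 was both called and over 2-fold higher, as were 9.95% of all genes tested. By size of the log2 fold change the 10 genes ranked from 242 (*Camp*) to 1100 (*Chil3*) of 14169.

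**Figure D1:**
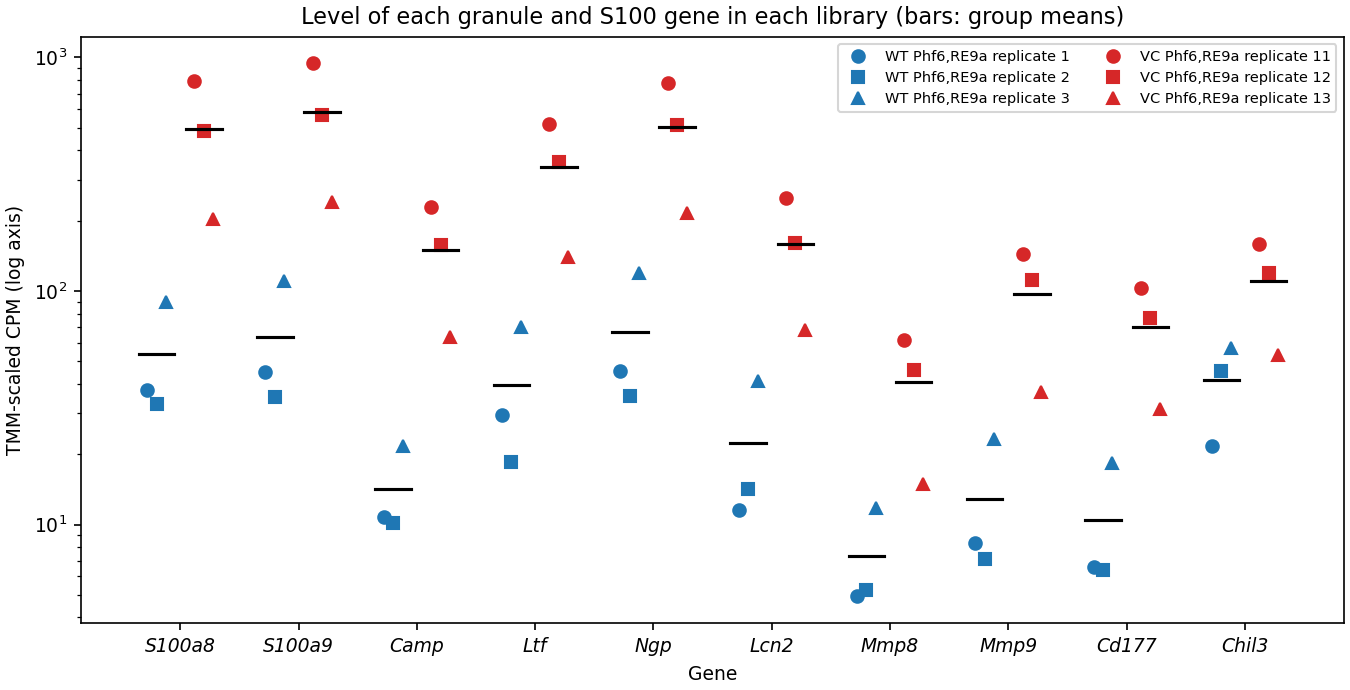
Level of each of the 10 genes in each library, in TMM-scaled CPM on a log axis, with *WT Phf6,RE9a* in blue, *VC Phf6,RE9a* in red, a marker shape for each replicate and black bars at the group means (n = 3). The red points lie above the blue ones for every gene but *Chil3*, replicate 11 is the highest and replicate 13 the lowest *VC Phf6,RE9a* point throughout, and *WT Phf6,RE9a* replicate 3 is the highest blue point throughout.

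Secondary granule genes for antimicrobial proteins rose together with the S100 pair. *Camp*, the cathelicidin precursor (chromosome 9, 109847379 to 109849617, minus strand, 4 exons), had 166, 150 and 358 counts in *WT Phf6,RE9a* and 3881, 2695 and 1072 in *VC Phf6,RE9a* cells. Its groups were the farthest apart of the 10 genes, with the lowest *VC Phf6,RE9a* library 2.94 times the highest *WT Phf6,RE9a* library in CPM. Its log2 fold change, 3.39 (SE 0.50, adjusted p = 0.0014), was also the largest of the 10. *Ngp*, neutrophilic granule protein, a secreted relative of the cathelicidins and cystatins (chromosome 9, 110419747 to 110423012, plus strand, 4 exons), had 699, 522 and 1981 counts in *WT Phf6,RE9a* and 13168, 8787 and 3614 in *VC Phf6,RE9a* cells. It went from 66.9 ± 46.2 to 501 ± 282 CPM (log2 fold change 2.90, SE 0.59, adjusted p = 0.00579).

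*Ltf* encodes lactoferrin, which binds iron, and *Lcn2* encodes lipocalin-2, which binds bacterial siderophores. *Ltf* (chromosome 9, 111019271 to 111042767, plus strand, 17 exons) had 454, 274 and 1158 counts in *WT Phf6,RE9a* and 8772, 6133 and 2360 in *VC Phf6,RE9a* cells. *Lcn2* (chromosome 2, 32384633 to 32388252, minus strand, 6 exons) had 178, 209 and 677 counts against 4242, 2750 and 1142. Neither gene overlapped between the groups, and *WT Phf6,RE9a* replicate 3 was the nearest to the *VC Phf6,RE9a* libraries for each. The log2 fold change was 3.10 for *Ltf* (SE 0.60, adjusted p = 0.0048) and 2.84 for *Lcn2* (SE 0.60, adjusted p = 0.00697).

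The proteases stored in secondary and tertiary granules rose as well. *Mmp8*, neutrophil collagenase of the secondary granules (chromosome 9, 7558456 to 7568485, plus strand, 10 exons), was the lowest of the 10 genes, with 76, 77 and 194 counts in *WT Phf6,RE9a* and 1041, 791 and 250 in *VC Phf6,RE9a* cells. Its groups were close at their edges, with replicate 13 only 1.27 times *WT Phf6,RE9a* replicate 3 in CPM. The log2 fold change was 2.48 (SE 0.55, adjusted p = 0.00853). *Mmp9*, gelatinase B, which marks tertiary granules (chromosome 2, 164940780 to 164955850, plus strand, 13 exons), had 129, 105 and 384 counts against 2436, 1904 and 620. It did not overlap between the groups, at a log2 fold change of 2.90 (SE 0.60, adjusted p = 0.00624).

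*Cd177* encodes a membrane glycoprotein of neutrophil granules and of the neutrophil surface (chromosome 7, 24743983 to 24760311, minus strand, 17 exons). It had 101, 94 and 304 counts in *WT Phf6,RE9a* and 1746, 1315 and 524 in *VC Phf6,RE9a* cells, again with no overlap. The log2 fold change was 2.74 (SE 0.54, adjusted p = 0.00529). The level went from 10.4 ± 6.89 to 70.3 ± 36.4 CPM.

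*Chil3* encodes a secreted chitinase-like protein that neutrophil precursors, some monocytes and activated macrophages make (chromosome 3, 106147554 to 106167564, minus strand, 11 exons). It had 335, 669 and 944 counts in *WT Phf6,RE9a* and 2703, 2049 and 898 in *VC Phf6,RE9a* cells. It was the only one of the 10 whose groups overlapped, since replicate 13 lay at 0.934 times *WT Phf6,RE9a* replicate 3 in CPM. The log2 fold change was 1.42 (SE 0.44, adjusted p = 0.0341). This call was lost with limma on log2(FPKM + 1) (adjusted p = 0.0559) and without *VC Phf6,RE9a* replicate 11 (0.112) or 12 (0.0864) or *WT Phf6,RE9a* replicate 1 (0.0827) or 2 (0.0661). Its near-identical neighbour *Chil4* had 0 counts in all 6 libraries, so how the authors' counting treated reads that match both is uncertain. The other 9 genes were called higher in each of the 12 other fits, with an adjusted p of at most 0.0339 (*Mmp8*).

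In levels per gene length (FPKM, fragments per kilobase of gene, scaled to library size), the order over the *VC Phf6,RE9a* libraries was *S100a9* (1105 ± 665), *S100a8* (702 ± 421), *Ngp* (405 ± 228), *Camp* (196 ± 108), *Ltf* (97.0 ± 54.4), *Chil3* (67.1 ± 32.6), *Lcn2* (60.1 ± 34.4), *Mmp9* (27.2 ± 15.3), *Cd177* (24.5 ± 12.7) and *Mmp8* (16.6 ± 9.70; SD, n = 3). Over libraries no neighbours in this order differed beyond their ranges. Within a *VC Phf6,RE9a* library the order was nearly fixed, with each gene above the next in all 3, except *Mmp9* above *Cd177* in 2 of 3. In *WT Phf6,RE9a* cells each gene was likewise above the next in all 3 libraries, except that *Mmp9* was above *Cd177* in 2 of 3 libraries and that *Chil3*, at 25.2 ± 10.9 FPKM, was above *Ltf*, at 11.3 ± 7.76 FPKM, in all 3. There *Chil3* was also above *Camp* in replicates 2 (27.6 against 13.3 FPKM) and 3 (34.6 against 28.3), and below it in replicate 1 (13.3 against 14.2).

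Libraries of a group differed widely in these genes, and in the same direction for each gene. The 10 genes together took 0.0203%, 0.0198% and 0.0558% of all counts in *WT Phf6,RE9a* replicates 1, 2 and 3, and 0.413%, 0.276% and 0.112% in *VC Phf6,RE9a* replicates 11, 12 and 13. Replicate 11 was above 12, and 12 above 13, for 10 of the 10 genes, an order seen in 17.6% of all genes tested. *WT Phf6,RE9a* replicate 3 was the highest of its group for 10 of 10, as for 33.7% of all genes tested. Both orders held together for 6.62% of all genes tested. The SD of log2 CPM within a group was 0.60 to 0.97 for the 10 genes in *WT Phf6,RE9a* and 0.82 to 1.08 in *VC Phf6,RE9a* cells. For the 6742 tested genes in the same range of levels the median was 0.16 and 0.087.

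The deviations from the group means were shared by the genes. Over the 6 libraries, Pearson's r between the deviations of log2 CPM was 0.937 to 0.998 in the 36 pairs of genes without *Chil3*, with a median of 0.983. In the 9 pairs with *Chil3* it was 0.714 to 0.894, with a median of 0.825. These are descriptions over 6 points that share libraries and depth, and 4 of the points are free once the group means are removed.

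Relative to *S100a8*, the ratios of *S100a9*, *Camp*, *Ltf*, *Lcn2* and *Mmp9* overlapped between the groups, and those of *Ngp*, *Mmp8*, *Cd177* and *Chil3* were lower in every *VC Phf6,RE9a* library. These differences were not tested. Per 100 *S100a8* counts there were 24.1 to 31.0 *Camp* counts in *WT Phf6,RE9a* and 28.9 to 32.5 in *VC Phf6,RE9a* libraries. *Ltf* gave 56.6 to 78.1 and 65.3 to 74.0, and *Mmp9* 21.7 to 25.8 and 18.1 to 23.0. *Mmp8* was at 13.05 to 15.9 in *WT Phf6,RE9a* and 7.32 to 9.54 in *VC Phf6,RE9a* libraries, *Ngp* at 107.9 to 133 and 98.02 to 105.98, and *Cd177* at 17.4 to 20.4 and 12.997 to 15.86. *Chil3* differed most, with 57.7, 138 and 63.5 counts per 100 of *S100a8* in *WT Phf6,RE9a* and 20.1, 24.7 and 26.3 in *VC Phf6,RE9a* libraries. As a share of the counts of the 10 genes, *Chil3* made up 9.83% (Wilson 95% interval 8.87 to 10.9), 21.6% (20.1 to 23.0) and 10.1% (9.55 to 10.8) in *WT Phf6,RE9a*, against 4.01%, 4.61% and 5.004% in *VC Phf6,RE9a* cells.

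**Figure D2:**
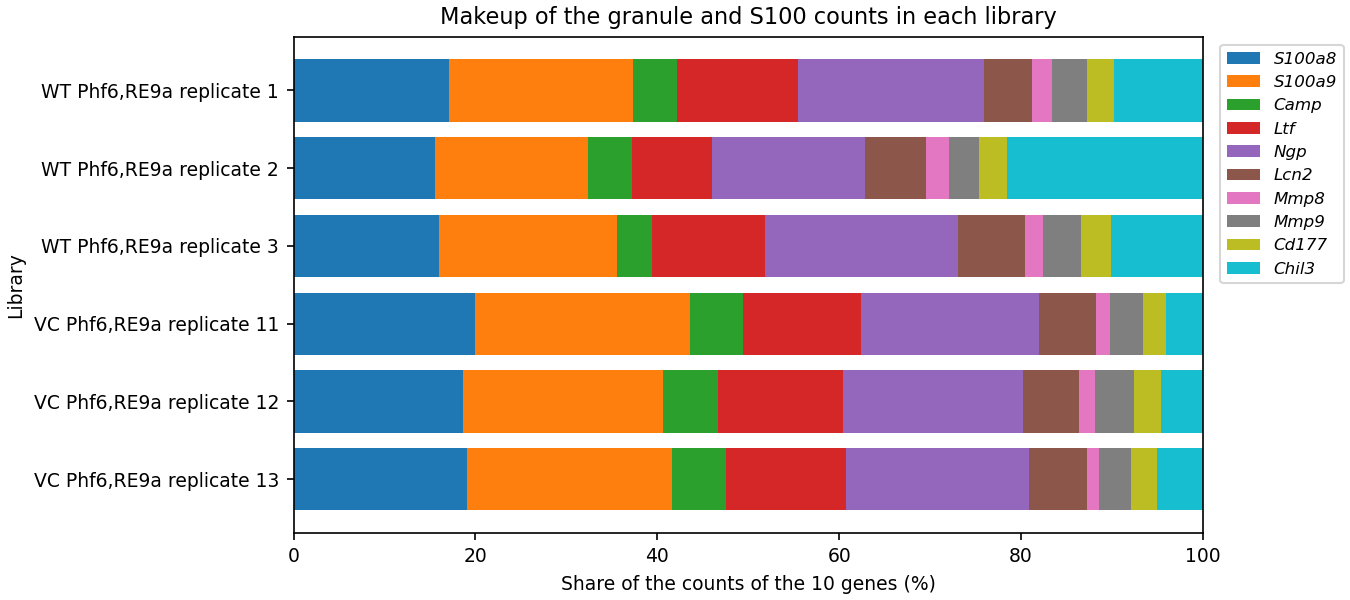
Share of each gene in the counts of the 10 genes, in percent, with 1 bar for each library and the bar's segments adding to 100%. The segments of *S100a8* (15.6% to 17.0% in *WT Phf6,RE9a*, 18.6% to 19.9% in *VC Phf6,RE9a* libraries) and *S100a9* (16.75% to 20.2% and 21.9% to 23.7%) are wider in each *VC Phf6,RE9a* bar than in any *WT Phf6,RE9a* bar, and that of *Chil3* is widest in *WT Phf6,RE9a* replicate 2 (21.6%) and narrow in the 3 *VC Phf6,RE9a* bars (4.01% to 5.004%).

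Other genes of late neutrophil maturation moved in the same direction. Of 27 such genes 22 were tested, and 21 rose, as did 21.5% of all genes tested. The median log2 fold change of the 22 was 2.88. *Ly6g*, the surface antigen that defines mouse neutrophils, had 6, 5 and 15 counts in *WT Phf6,RE9a* and 177, 125 and 36 in *VC Phf6,RE9a* libraries (log2 fold change 3.57, SE 0.67, adjusted p = 0.0041). *Cxcr2*, the chemokine receptor for release from the marrow, had 15, 14 and 45 counts against 384, 271 and 86, and rose by 3.21. *Retnlg*, a resistin-like protein of neutrophils, had 104, 77 and 279 counts against 2226, 1299 and 467, and rose by 3.02. *Anxa1*, which encodes an anti-inflammatory annexin, rose by 2.31 and *Hp*, haptoglobin, by 2.36. *Wfdc21*, *Chil1* and *Pglyrp1* rose by 3.20, 3.20 and 2.87. *Olfm4*, named after its values were seen, did not pass (2.51, adjusted p = 0.0545). *Bpi*, on this list of 27 though its protein is stored in azurophil granules, had 0 counts in every library. This allows up to 0.191 CPM in the shallowest library by counting error.

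Azurophil granule genes also rose, by less at the median. Of 8 genes 7 rose and 1 fell, with a median log2 fold change of 1.59. The shares over all genes tested were 21.5% and 22.7%. *Mpo*, myeloperoxidase, had 368, 248 and 1127 counts in *WT Phf6,RE9a* and 2960, 2359 and 1515 in *VC Phf6,RE9a* libraries (log2 fold change 1.88, SE 0.50, adjusted p = 0.018). *Elane*, neutrophil elastase, rose by 2.28 and *Prtn3*, proteinase 3, by 2.33. *Cst7*, an inhibitor of cathepsins, fell by 1.24 (adjusted p = 0.000843). Per 100 *S100a8* counts, *Mpo* stood at 51.2 to 75.8 in *WT Phf6,RE9a* and 22.0 to 44.4 in *VC Phf6,RE9a* libraries, and *Elane* at 20.5 to 23.4 and 10.3 to 17.4. Both ratios were lower in each *VC Phf6,RE9a* library, and the difference was not tested. Without *VC Phf6,RE9a* replicate 11, 4 azurophil genes were called higher.

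**Figure D3:**
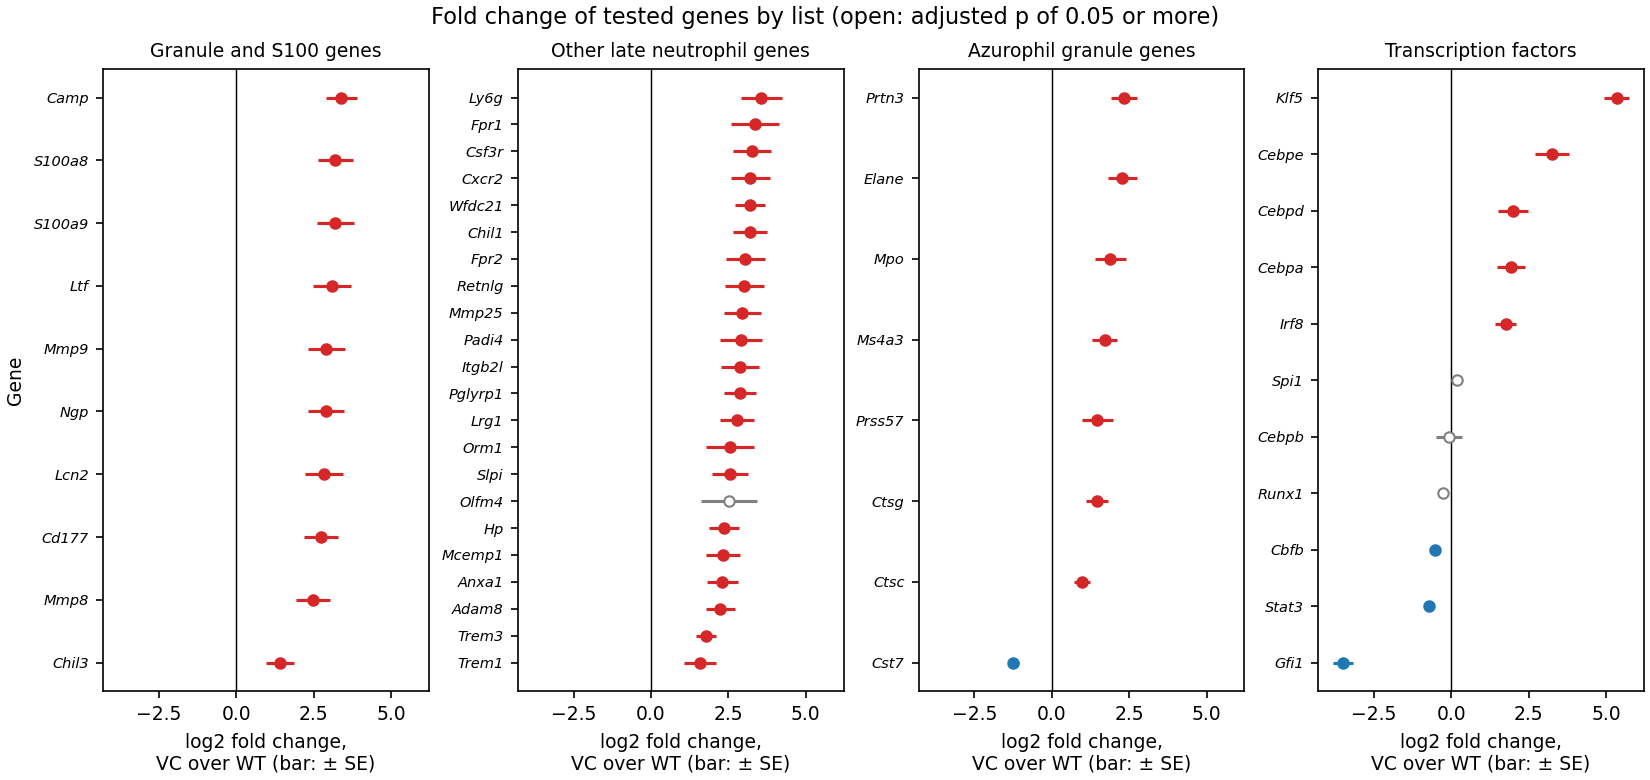
Log2 fold changes, with *VC Phf6,RE9a* cells over those of *WT Phf6,RE9a*, with SEs (n = 3 per group) for the tested genes of 4 lists, filled red where higher and blue where lower at an adjusted p under 0.05, and open otherwise. All points of the granule and S100 genes lie between 1.42 and 3.39, those of the azurophil genes between -1.24 and 2.33, and the transcription factors spread from -3.48 to 5.35.

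Transcription factors of granulocyte maturation moved in both directions. Of 12, 11 were tested, and 5 rose and 3 fell, with a median log2 fold change of 0.20. Among all genes tested, 21.5% rose and 22.7% fell. *Cebpe*, which encodes C/EBPε, had 9, 4 and 21 counts in *WT Phf6,RE9a* and 160, 128 and 66 in *VC Phf6,RE9a* libraries (log2 fold change 3.26, SE 0.55, adjusted p = 0.00263). Its *VC Phf6,RE9a* libraries stood in the same order as the granule genes, an order seen in 17.6% of all genes tested. Other listed factors, *Cebpa* among them, stood in that order too. *Cebpa*, which encodes C/EBPα of earlier myeloid cells, had 19, 13 and 39 counts against 137, 98 and 60, and rose by 1.94. *Klf5* was at 2, 1 and 4 counts against 120, 104 and 101 and passed the test (adjusted p = 7.87e-05). *Gfi1*, a repressor needed for neutrophil development, fell by 3.48 (644, 827 and 485 counts against 76, 78 and 39, adjusted p = 0.000194). *Stat3*, which signals below the G-CSF receptor, fell by 0.71 and *Cbfb*, the partner of RUNX1, by 0.52. *Runx1* was at a log2 fold change of -0.27 and did not pass (adjusted p = 0.0547), with groups that did not overlap. DESeq2, limma and edgeR without *WT Phf6,RE9a* replicate 3 each called 4 of the factors lower instead of 3.

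Receptors, inhibitors and binding partners of the 10 proteins were a mixed group. Of 14, 9 were tested, and 4 rose and 1 fell, with a median log2 fold change of 0.62. *Tlr4*, a receptor for calprotectin, had 5, 6 and 7 counts in *WT Phf6,RE9a* and 48, 21 and 24 in *VC Phf6,RE9a* libraries (log2 fold change 2.22, adjusted p = 0.00603). *Timp2*, a metalloproteinase inhibitor, had 7, 18 and 17 counts against 142, 96 and 46 and rose by 2.62. *Timp1*, the inhibitor that binds gelatinase B, had at most 7 counts in any library and was not tested. *Itgam*, CD11b, had 17, 19 and 78 counts against 333, 194 and 78, and passed the test (log2 fold change 2.31, adjusted p = 0.0272) with groups that overlapped. *Itgb2*, its partner CD18, was at -0.02 and did not pass. *Cd44*, a docking site of gelatinase B, fell by 0.31, a call lost with total counts only and without *WT Phf6,RE9a* replicate 1 or any of the 3 *VC Phf6,RE9a* replicates, and *Lrpap1* rose by 0.27. Without *VC Phf6,RE9a* replicate 11 or 12, or *WT Phf6,RE9a* replicate 2, 2 of the partners were called higher.

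Within the same protein families the picture was not uniform. For both families below, the shares over all genes tested were 21.5% higher and 22.7% lower. Of 16 other S100 genes 5 were tested, and 3 rose. *S100a11* had 99, 37 and 137 counts in *WT Phf6,RE9a* and 556, 404 and 149 in *VC Phf6,RE9a* libraries (log2 fold change 1.91, adjusted p = 0.0236), *S100a6* rose by 1.25 and *S100a1* by 0.34. Without *VC Phf6,RE9a* replicate 11, or without replicate 12, 0 of the family passed by edgeR, with 2 and 3 at an unadjusted p under 0.05. With every library, DESeq2 called 3 and limma 2. *S100a10*, the annexin A2 partner, was at -0.38 and *S100a13* at 0.30, and neither passed. Of 19 other matrix metalloproteinases 5 were tested, and 3 rose and 2 fell. *Mmp25*, the leukolysin of neutrophil granules, had 18, 9 and 42 counts against 288, 201 and 89 and rose by 2.96, with its libraries in the same order as those of *Mmp8* and *Mmp9*. *Mmp15* was at 3, 0 and 4 counts against 309, 549 and 334, and *Mmp28* rose by 3.51. *Mmp14*, a membrane-bound collagenase, fell by 1.81 (2027, 2082 and 2446 counts against 549, 767 and 722), and *Mmp27*, named after its values were seen, fell by 4.06.

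Markers of some other cell types that a GFP+ marrow sort could hold moved with the groups too, and their part in the levels of the granule genes was not tested. Of all genes tested, 21.5% rose and 22.7% fell. In bulk samples, fewer cells of a type and less RNA per cell cannot be told apart. Of 8 monocyte markers 2 rose, near the share over all genes, and 1 fell. Their summed level was 97.1 to 153 CPM in *WT Phf6,RE9a* and 264, 171 and 117 CPM in *VC Phf6,RE9a* replicates 11, 12 and 13. Of 8 macrophage markers 2 rose, again near that share, with sums of 11.5 to 21.6 and 30.9 to 34.4 CPM. Of 8 eosinophil markers 6 rose, with sums of 54.3 to 76.5 and 133 to 184 CPM, and the eosinophil granule genes *Epx* and *Prg2* were highest in replicate 12, at 246 and 927 counts. Of 9 mast cell and basophil markers 8 fell, from 16980 to 27233 CPM down to 4695 to 5168 CPM.

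All 8 erythroid markers rose, from 1454 to 2199 CPM up to 4731 to 5413 CPM. Of 7 B cell markers 4 were tested and rose, with sums of 0.746 to 1.69 CPM in *WT Phf6,RE9a* and 8.97 to 26.9 CPM in *VC Phf6,RE9a* cells. Of 8 T and NK cell markers 2 were tested and rose, with sums of 2.51 to 3.75 and 9.33 to 14.4 CPM. Of 6 megakaryocyte and platelet markers 3 were tested, and 1 rose and 1 fell, with sums of 167 to 293 and 17.1 to 18.0 CPM, and *Gp1bb* was at 0 throughout. Of 8 stem and progenitor markers 5 were tested and 2 fell, *Kit* and *Cd34*, with sums of 2060 to 3496 and 245 to 406 CPM. In *VC Phf6,RE9a* replicates 11, 12 and 13 the erythroid sum was 4924, 5413 and 4731 CPM and the mast cell and basophil sum 4755, 4695 and 5168 CPM. The sums of the 10 granule and S100 genes there were 3979, 2591 and 1066 CPM. In *WT Phf6,RE9a* replicates 1, 2 and 3 the 10 genes summed to 221, 211 and 563 CPM. The mast cell and basophil sum in these was 24108, 27233 and 16980 CPM, and the erythroid sum 2199, 1454 and 2016 CPM. For the stem and progenitor markers it was 2905, 3496 and 2060 CPM. *WT Phf6,RE9a* replicate 3 was thus highest in the 10 genes and lowest in the mast cell and stem lists. The link was not tested.

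**Figure D4:**
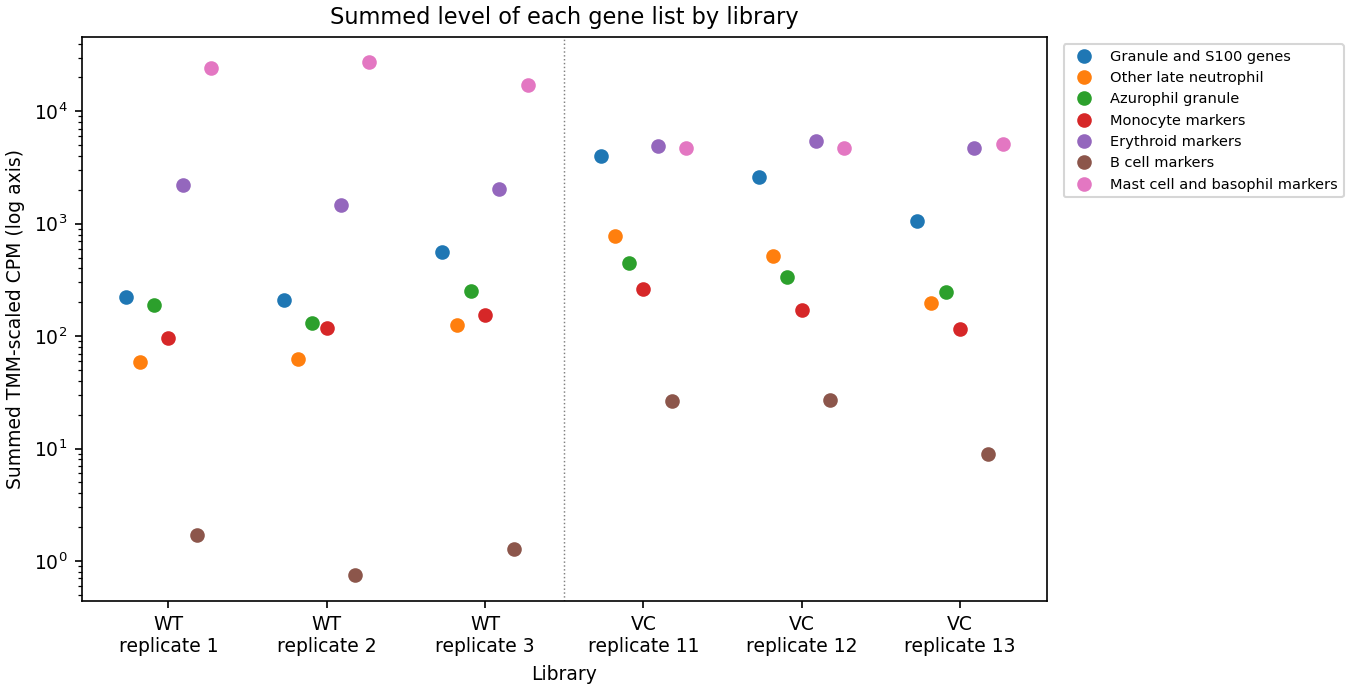
Summed level of 7 gene lists in each of the 6 libraries, in TMM-scaled CPM on a log axis, with 1 color for each list and *WT Phf6,RE9a* libraries left of the dotted line. The granule and S100 genes stand at 211 to 563 CPM on the left and 1066 to 3979 CPM on the right. On the right they and the other late neutrophil genes differ between libraries. The azurophil (448, 334 and 247 CPM), monocyte (264, 171 and 117 CPM) and B cell sums (26.6, 26.9 and 8.97 CPM) differ there too. The erythroid and mast cell sums are level on the right.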

How the data were processed

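RNA-sequencing of sorted mouse leukemia cells, with 3 libraries in either group, was analysed from a table of 54532 Ensembl genes. In it the authors deposited raw read counts, and FPKM values, used here for the order of levels and in 1 alternative test. Their own comparison, which the authors deposited as a mean signal per group, a log2 ratio and p-values, was not used. The submitters' processing notes name Bowtie 0.12.0 and mm8, but the deposited coordinates are those of GRCm38: 54495 genes had an identifier in GENCODE M21, and 98.3% of these the same start and end. The counting tool, annotation release and strandedness are not given in the sources used here. Chi-square per gene between libraries of a group was 10.7 to 41.3, more than counting noise gives. Separate libraries made from 1 sample can also exceed counting noise, so this cannot show that they come from separate mice. Each library was entered as a replicate of its own.

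In R 4.3.3, edgeR 4.0.16 filtered the counts (filterByExpr), scaled them by TMM (factors 0.917 to 1.07) and compared the groups by its quasi-likelihood test, with p adjusted after Benjamini-Hochberg over 14169 genes, at a threshold of 0.05. The SE is the log2 fold change over the square root of F. Log2 CPM used a prior count of 2. A gene at 0 counts in all libraries can lie at up to 3 counts per library, which covers counting error only. Alternatives were RLE factors, total counts only, no filter, at least 10 counts in every library, DESeq2 1.42.0, limma 3.58.1 on log2(FPKM + 1), a minimum of 2-fold, and each library left out. Scripts were tested on simulated data with known changes. Of 97 genes changed 2-fold 51 (52.6%) were recovered, and of 96 changed 4-fold 83 (86.5%). Among the unchanged genes 11 were called. A gene that did not pass may thus still differ. Figures used matplotlib 3.10.9 in Python 3.11.15.

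The 10 genes and all lists (azurophil, other late neutrophil, transcription factors, partners, S100 and metalloproteinase families, cell type markers) were chosen with earlier results of these data known. Named were the 10 genes, *Phf6*, the 3 most abundant and the 3 with the lowest p of each list, *Cebpe*, *Cebpa*, *Gfi1*, *Tlr4*, *Timp1*, *Itgam*, *Ly6g*, *Cxcr2*, *Mpo* and *Elane*, and the 5 genes most like the mean of the 10 by each of 2 measures.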

Additional observations from a re-analysis of the deposited data

How the results depend on the processing

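No paired analysis was possible because the groups share no replicate numbers (1 to 3 against 11 to 13). Of the 10 genes, 9 kept their call in each of the 12 other fits, and *Chil3* lost it in 5, so that 9 to 10 were called higher with a library left out. Log2 fold changes of *S100a8* ran from 2.68 to 3.80 and those of *Chil3* from 1.07 to 1.75. Scaling by total counts only moved the median log2 fold change of all genes tested from 0.013 to 0.16 and gave 4048 genes higher and 2474 lower in the whole table, with no changed call among the 10. With a minimum of 2-fold, 1410 genes were higher and 1625 lower in the whole table. With at least 10 counts in every library, where fewer genes are tested, 1 metalloproteinase was higher and 1 lower, 2 partners were higher and 3 transcription factors were higher. With total counts only, 0 partners were lower by edgeR (0 at an unadjusted p under 0.05), while DESeq2 with its own size factors and limma on FPKM each called 1. Leaving out each library in turn, azurophil genes called higher ran from 4 (without *VC Phf6,RE9a* replicate 11) to 7, partners higher from 2 to 4 (2 without replicate 11, replicate 12 or *WT Phf6,RE9a* replicate 2) and lower from 0 to 1, S100 family genes higher from 0 to 2 (0 without replicate 11 or 12, 1 without *WT Phf6,RE9a* replicate 1 or 2, against 3 with every library) and lower from 0 to 1, and genes of the whole table from 2179 to 3132 higher and 2511 to 3338 lower. The cause was not tested. The summed level of the 10 genes was 2214 CPM higher in *VC Phf6,RE9a* cells, and 1490 to 2919 CPM higher with a library left out. With 3 libraries a group, precision is set by the spread between libraries, which was wide for the 10 genes.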

Other observations

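Among 11433 genes outside the 10 whose log2 CPM averaged 1 or more, those whose level over the 6 libraries was most like the mean of the 10 (each centred and scaled) were *Cxcr2*, *Lsp1*, *Fcer1g*, *F630028O10Rik* and *Csf3r*, each with a Pearson's r of 0.999. *Csf3r*, the G-CSF receptor, had 43, 48 and 138 counts in *WT Phf6,RE9a* and 1197, 905 and 265 in *VC Phf6,RE9a* cells. *Fcer1g*, the common Fc receptor gamma chain, had 35, 37 and 79 against 306, 220 and 122, and *Lsp1*, a leukocyte actin-binding protein, 46, 46 and 120 against 545, 371 and 187. An r of at least 0.95 was reached by 238 genes (2.08%).

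With the group means taken away from both, the most alike genes were *App* (0.999), *Wdr24* (0.999), *Cxcr2* (0.998), *Trib1* (0.997) and *F5* (0.996), and 90 genes (0.787%) reached 0.95. *Trib1*, a pseudokinase that lowers C/EBPα protein, had 38, 40 and 115 counts in *WT Phf6,RE9a* and 532, 333 and 121 in *VC Phf6,RE9a* cells, and rose (log2 fold change 2.25, adjusted p = 0.0175 from edgeR). *Wdr24* did not pass (log2 fold change -0.09, adjusted p = 0.473), with 629, 601 and 749 counts against 709, 696 and 614. These correlations describe 6 points that share libraries and depth.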
